A study of Mus musculus with 4 samples.

Results

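Cells detect foreign or misplaced nucleic acids with a small set of receptors, and 10 genes of that system were followed here in mouse fibroblasts under reprogramming. The genes encode the RNA helicases RIG-I (Ddx58), MDA5 (Ifih1) and LGP2 (Dhx58), the endosomal receptor TLR3, the DNA sensor cGAS (Mb21d1) and the Z-form nucleic acid sensor ZBP1. They also encode the RNA-activated kinase PKR (Eif2ak2), the adaptors MAVS and STING (Tmem173), and the kinase TBK1. They were chosen by name, and all 10 were found among the 22369 genes of the deposited table. The table holds 4 libraries of total RNA from OG2MEF cultures on day 9 of reprogramming, 2 labelled SOX17-V118M and 2 labelled wild-type SOX17. SOX17 is an endodermal transcription factor, and V118M is a missense form of it that the study examined for reprogramming activity. OG2MEF are mouse embryonic fibroblasts that carry an Oct4-driven green fluorescent reporter. Per the labels' protocols, the cells were transduced by pMX retroviruses with Sox2 and Klf4 plus OCT4, SOX17, SOX17-V118M or GFP, and then grown as for embryonic stem cells, with LIF and vitamin C added. The labels do not say which combination each library received, and no library of GFP-transduced or untransduced cells was analysed here.

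In textbook outline, RIG-I and MDA5 bind double-stranded RNA in the cytosol and signal through MAVS on mitochondria, while TLR3 reads double-stranded RNA inside endosomes. The DNA sensor cGAS makes a cyclic dinucleotide that activates STING on the endoplasmic reticulum. Both branches reach TBK1, which phosphorylates IRF3, and type I interferon follows. Interferon in turn induces several of the sensors, so a receptor such as RIG-I is both an input to the response and one of its products. Fibroblasts carry both branches and respond through them to viral infection.

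Levels are the authors' normalized values, called values here. They are whole numbers but not raw counts, because the sorted columns of the 4 libraries held the same value at 76.7% of ranks. The depth of each library is therefore unknown. Differences are log2 fold changes, V118M minus wild type, of value + 1, with a standard error (SE) and a p-value from limma. The p-value was adjusted over all 19547 genes with 1 or more in 2 or more libraries, a filter that all 10 members passed. Whether the replicates were grown as separate cultures is not stated, and p-values therefore measure only the spread between these libraries, which could be technical. All 10 fibroblast markers were present in every library, several of them (Col1a2, Col3a1, Vim and Fn1) among the highest values of the table, with summed values of 170018 and 138142 in V118M and 168342 and 170300 in wild type. Library V118M replicate 2 stood apart from the rest. Its Pearson correlations with the other libraries were 0.954 to 0.964, against 0.986 to 0.990 among the other 3, over the 12661 genes averaging 5 or more on the log2 scale. Its deviation from the other libraries ran with transcript length across genes (Spearman's rho -0.458 over 12635 genes, which are not independent replicates). Correction of each library for transcript length and GC content was therefore run as an alternative.

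Sequence around a start site was available for 7 of the 10 members, and it is shown here because several members had levels that lay higher in the same group. The RefSeq windows run from 250 bases before to 50 after a start site (GRCm38.p6), and none was given for Dhx58, Zbp1 or Tmem173. They were searched on both strands for tandem GAAA half-sites, the letters that interferon regulatory factors are known to bind. The forms searched were GAAANNGAAA, the core of the interferon-stimulated response element, and GAAANGAAA, a variant with a 1-base gap. Binding to the variant is not assumed here. Both were chosen after the windows had been seen. At least 1 match was present in Ddx58, Ifih1 and Eif2ak2, and none in Mavs, Tlr3, Mb21d1 or Tbk1. The Tlr3 window (chr8:45410331-45410630) lies wholly inside the gene, whose annotated 5′ end is at 45411080. The lack of a match there thus says nothing about the sequence before that end. Of all 32851 windows in the table, 6.27% held a match to either form, 3.44% to GAAANNGAAA and 3.17% to GAAANGAAA. Another motif, TTCNNNGAA, the letters of the STAT element, was matched in 8.3% of windows and in 1 member, Eif2ak2. The stretches below are 30 bases each, written 5′ to 3′ on the gene's strand, with the matched letters in capitals (the Ddx58 site after its start matches on the opposite strand).
Ddx58, 60 bases before its start, chr4:40239866-40239895, minus strand: tctaggttcaGAAACGAAActggatccccg
Ddx58, 2 bases after its start, chr4:40239804-40239833, minus strand: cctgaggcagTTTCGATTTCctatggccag
Ifih1, 32 bases after its start, chr2:62646206-62646235, minus strand: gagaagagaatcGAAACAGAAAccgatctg
Eif2ak2, 18 bases after its start, chr17:78882535-78882564, minus strand: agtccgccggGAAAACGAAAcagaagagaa

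For context, the bases from 160 to 11 before the start are given for the RNA sensor Ddx58 and for its adaptor Mavs. The Ddx58 stretch holds a match to GAAANGAAA only, and the Mavs stretch holds none.
Ddx58, chr4:40239836-40239985, minus strand: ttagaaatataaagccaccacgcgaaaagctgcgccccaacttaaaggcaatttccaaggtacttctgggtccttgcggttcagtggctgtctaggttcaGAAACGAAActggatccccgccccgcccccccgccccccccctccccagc
Mavs, chr2:131233903-131234052, plus strand: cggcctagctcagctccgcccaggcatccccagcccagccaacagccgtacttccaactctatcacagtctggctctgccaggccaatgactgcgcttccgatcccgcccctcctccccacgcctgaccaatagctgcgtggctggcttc

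V118M was compared with wild-type SOX17 to ask how the mutant factor alters gene expression during reprogramming. For the 10 members, the values were higher in V118M for the 3 RNA helicases, ZBP1 and PKR, by 1.49-fold to 3.34-fold. For TLR3, cGAS, MAVS, STING and TBK1 the estimates lay between 0.90-fold and 1.36-fold, and their 95% intervals included no difference. At an adjusted p under 0.05 (limma), 0 of 10 members passed, as did 0% of all genes tested (0 of 19547, against 784 or 4.01% at an unadjusted p under 0.05). At an unadjusted p under 0.05, 5 members were higher and 0 lower, where the shares over all genes tested were 2.31% and 1.7%. The median log2 fold change of the members was 0.51, against 0 over all genes tested, and 7 of 10 members were above 0, against 49.2% of all genes. Both V118M values lay above both wild-type values in 6 members (13.2% of all genes), and below both in 2 members (14.8% of all genes). Since these are bulk cultures, a change in the number of cells that express a gene cannot be told apart from a change in RNA per cell.

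**Figure D1:**
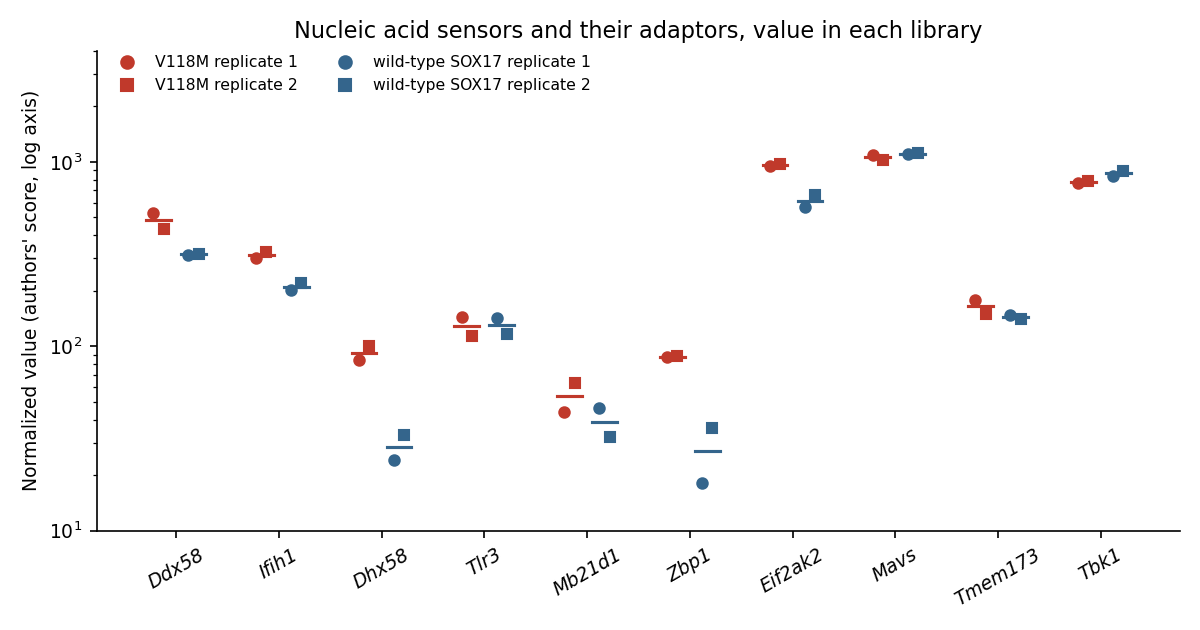
Normalized value of each of the 10 genes in each library, on a log axis. Red points are the 2 V118M libraries and blue points the 2 wild-type SOX17 libraries, circles for replicate 1 and squares for replicate 2, with a bar at the group mean. Ddx58, Ifih1, Dhx58, Zbp1, Eif2ak2 and, by a small margin, Tmem173 have both red points above both blue points.

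Among the cytosolic RNA helicases, Ddx58 (ENSMUSG00000040296, chromosome 4, 40203773 to 40239828, minus strand) stood at values of 527 and 434 in V118M, against 314 and 317 in wild type. This gene encodes RIG-I, which recognises short double-stranded RNA with a 5′ triphosphate. The wild-type pair was tight and the V118M pair wide, and the groups did not overlap. The log2 fold change was 0.60 with an SE of 0.17 (1.51-fold, 95% interval 1.12 to 2.04, unadjusted p = 0.0158, limma adjusted p = 0.951). Leaving out V118M replicate 2 gave 0.74, and leaving out V118M replicate 1 gave 0.46. After the length and GC correction it was 0.48, with an unadjusted limma p of 0.0996. That correction took the length of the listed transcript, for Ddx58 only 756 bases against 7050 bases of annotated exons. The corrected value may therefore rest on too short a length. The Ddx58 window held both tandem sites printed above.

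Ifih1 (ENSMUSG00000026896, chromosome 2, 62595798 to 62646255, minus strand), which encodes MDA5, the sensor of long double-stranded RNA, stood at 302 and 325 in V118M and 202 and 219 in wild type. Both pairs were tight, and every V118M value was above both wild-type values. Its log2 fold change was 0.57 with an SE of 0.17 (1.49-fold, 95% interval 1.11 to 1.99, unadjusted p = 0.0171, limma adjusted p = 0.951). The size was close to that of Ddx58, and leaving out any single library moved it only between 0.51 and 0.63.

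Dhx58 (ENSMUSG00000017830, chromosome 11, 100694884 to 100704271, minus strand) had 84 and 100 in V118M, against 24 and 33 in wild type. It encodes LGP2, a relative of RIG-I and MDA5 that lacks their signalling domains and modulates both. The groups were far apart relative to the spread within each pair, and the log2 fold change was 1.67 with an SE of 0.30 (3.18-fold, 95% interval 1.89 to 5.35). Its unadjusted p of 0.00213 was the lowest of the 10 members and ranked 60 among the 19547 genes (limma adjusted p = 0.694). An antisense gene, Dhx58os, overlaps it on the plus strand. The sources used here do not say whether counting used strand, so reads of both genes may not be told apart.

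Zbp1 (ENSMUSG00000027514, chromosome 2, 173206612 to 173218923, minus strand) had almost identical values of 87 and 88 in V118M, against 18 and 36 in wild type. ZBP1 binds Z-form RNA or DNA and can start necroptosis through the kinase RIPK3. The groups did not overlap, but the wild-type libraries differed from each other by a factor that made the size of the difference uncertain. The log2 fold change of 1.74 had an SE of 0.39 (3.34-fold, 95% interval 1.67 to 6.69, unadjusted p = 0.0064, limma adjusted p = 0.951). It was 1.26 without wild-type replicate 1 and 2.22 without wild-type replicate 2. Zbp1 and Dhx58 were the 2 members with at least a 2-fold difference and groups apart, which held for 2.69% of all genes.

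Eif2ak2 (ENSMUSG00000024079, chromosome 17, 78852564 to 78882573, minus strand) had 946 and 967 in V118M and 568 and 663 in wild type. It encodes PKR, which halts translation by phosphorylating eIF2 alpha when it binds double-stranded RNA. The V118M values nearly coincided, and the lower of them was well above the higher wild-type value. The log2 fold change was 0.64 with an SE of 0.16 (1.56-fold, 95% interval 1.19 to 2.05, unadjusted p = 0.0083, limma adjusted p = 0.951). It ranged from 0.53 to 0.75 when any 1 library was left out. A lincRNA, Gm26637, and an rRNA gene overlap this locus on the plus strand.

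Tlr3, the endosomal receptor for double-stranded RNA (ENSMUSG00000031639, chromosome 8, 45395665 to 45411080, minus strand), was at 144 and 114 in V118M and at 143 and 117 in wild type. The groups overlapped fully, and replicate 1 was the higher library in each. The log2 fold change was -0.01 with an SE of 0.23, and the 95% interval ran from 0.66-fold to 1.49-fold (limma adjusted p = 1). This does not show that Tlr3 levels were equal. An antisense gene, Gm45542, overlaps Tlr3.

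Mb21d1 (ENSMUSG00000032344, chromosome 9, 78430526 to 78443237, minus strand), which encodes the DNA sensor cGAS, had 44 and 63 in V118M and 46 and 32 in wild type. The groups overlapped. Its log2 fold change of 0.45 had an SE of 0.34 (95% interval 0.74-fold to 2.50-fold, limma adjusted p = 0.951) and lay between 0.19 and 0.70 with 1 library left out. These were among the lowest values of the 10 members. A transcribed processed pseudogene, Gm8093, overlaps Mb21d1 on the plus strand. Tmem173 (ENSMUSG00000024349, chromosome 18, 35733679 to 35740554, minus strand), which encodes the cGAS adaptor STING, stood at 179 and 150 in V118M and 148 and 140 in wild type. The groups were just apart, by 2 units of value between the nearest libraries. The log2 fold change was 0.19 with an SE of 0.20 (95% interval 0.81-fold to 1.60-fold, limma adjusted p = 0.951), and it was between 0.06 and 0.31 with 1 library left out.

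Mavs and Tbk1 had the smallest standard errors of the 10 members. Mavs (ENSMUSG00000037523, chromosome 2, 131234063 to 131248025, plus strand), the mitochondrial adaptor of RIG-I and MDA5, had 1094 and 1022 in V118M, against 1100 and 1114 in wild type. Both V118M values were below both wild-type values, by a small margin. The log2 fold change was -0.07 with an SE of 0.14 (95% interval 0.75-fold to 1.22-fold, limma adjusted p = 0.955). Tbk1 (ENSMUSG00000020115, chromosome 10, 121546455 to 121586787, minus strand), the kinase that activates IRF3, stood at 768 and 786 in V118M and 835 and 894 in wild type. Here too the V118M pair lay below, and the log2 fold change was -0.15 with an SE of 0.14 (95% interval 0.70-fold to 1.15-fold, limma adjusted p = 0.951).

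**Figure D2:**
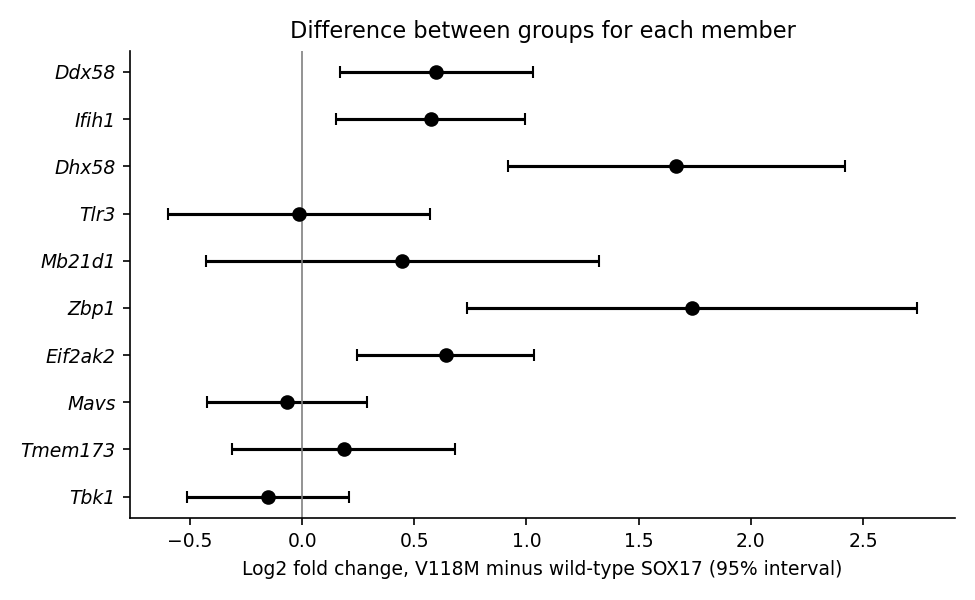
Log2 fold change of each member, V118M minus wild-type SOX17, on log2(value + 1), with its 95% interval from limma. The intervals of Ddx58, Ifih1, Dhx58, Zbp1 and Eif2ak2 lie above 0 before adjustment, and those of Tlr3, Mb21d1, Mavs, Tmem173 and Tbk1 include it.

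In the 5 higher members both V118M values lay above both wild-type values, so leaving out any 1 library could not reverse their direction. Relative to the wild-type mean, the median log2 deviation over the 10 members was 0.42 in V118M replicate 1 and 0.54 in V118M replicate 2, against -0.03 and 0.03 in wild-type replicates 1 and 2. The wild-type medians mirror each other because both are taken from their own mean. At an unadjusted p under 0.05 (limma), 5 members passed with all libraries. After the length and GC correction 4 passed, without Ddx58, where 956 of 19547 genes tested passed. For Ddx58 that correction used a listed transcript of only 756 bases. The count also shifted with 1 library left out. Each such fit had 1 residual degree of freedom, with the lone library taken to vary like the other group. Those counts are therefore not set out. Mavs was lower in V118M with all libraries and in every alternative. Its log2 fold changes ran from -0.12, without V118M replicate 1, to -0.02.

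**Figure D3:**
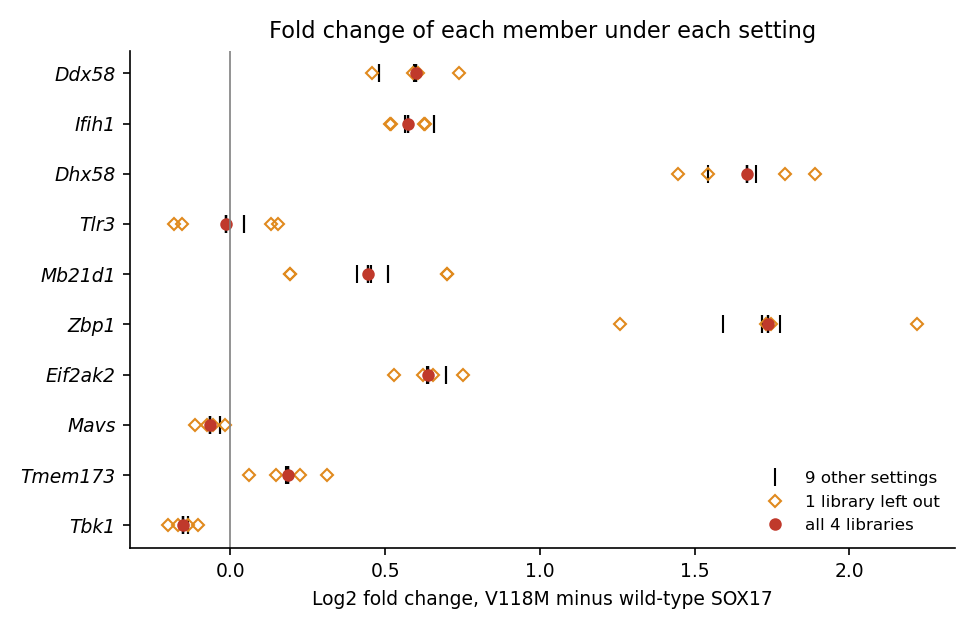
Log2 fold change of each member with all 4 libraries (red circles), with 1 library left out (orange diamonds) and under the 9 other settings (black ticks). Ddx58, Ifih1, Dhx58, Zbp1, Eif2ak2, Tmem173 and Mb21d1 stay above 0 in all 13 alternatives. Mavs and Tbk1 stay below 0, and Tlr3 lies on both sides of it. For members with groups apart (all except Tlr3 and Mb21d1), only the settings with the length and GC correction could have changed the sign.

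The members differ widely in level. Per kilobase of annotated exon sequence, Mavs averaged 316 in V118M and 331 in wild type, and Tbk1 averaged 199 in V118M and 221 in wild type. They were followed by Eif2ak2 at 187 in V118M and 120 in wild type. Mavs, Tbk1 and Eif2ak2 thus had the highest levels of the 10 members on this scale in both groups. In V118M the order continued with Ddx58 (68.2), Tmem173 (60.0), Ifih1 (38.4), Dhx58 (28.1), Zbp1 (24.8), Tlr3 (24.8) and Mb21d1 (13.0), all as value per kilobase. In wild type it continued with Tmem173 (52.5), Ddx58 (44.8), Ifih1 (25.8), Tlr3 (25.0), Mb21d1 (9.45), Dhx58 (8.71) and Zbp1 (7.65). Dhx58 and Zbp1, at the bottom in wild type, stood above the mean of Mb21d1 in V118M. Of the 9 neighbouring pairs in this order, 2 overlapped between libraries in V118M (Ddx58 with Tmem173, Zbp1 with Tlr3) and 3 in wild type (Ifih1 with Tlr3, Mb21d1 with Dhx58, Dhx58 with Zbp1). The order depends on the length used, and whether the authors' values were already adjusted for length is not stated. The transcript that the table lists for Ddx58 is only 756 bases, against 7050 bases of annotated exons, and dividing by listed transcripts would put Ddx58 at the top.

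**Figure D4:**
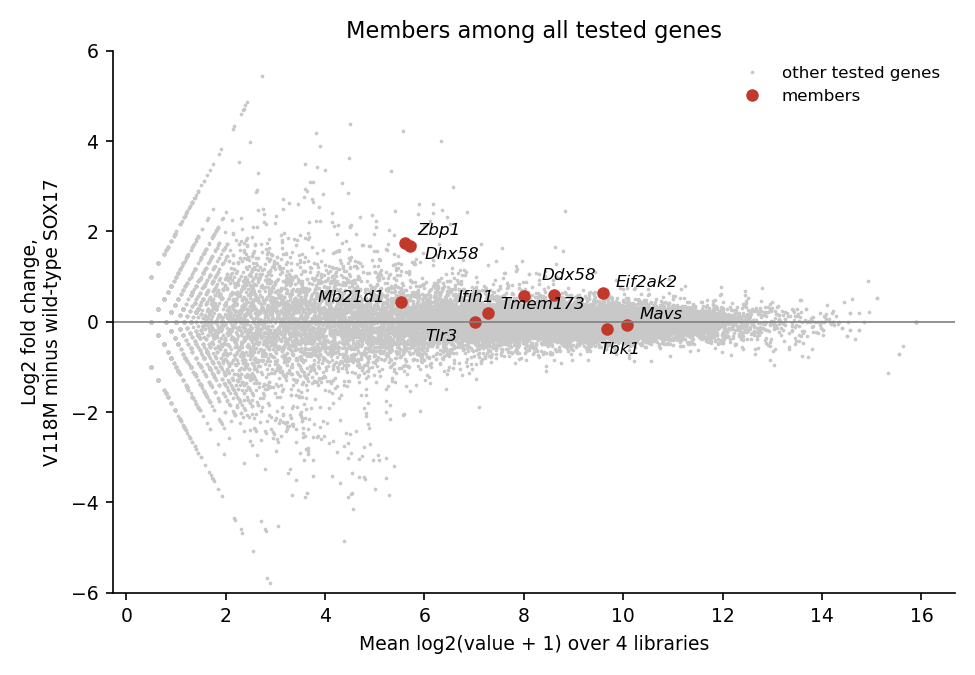
Log2 fold change, V118M minus wild-type SOX17, against mean log2(value + 1) for all 19547 tested genes (grey), with the 10 members in red. Zbp1 and Dhx58, at low mean levels, and Eif2ak2, Ddx58 and Ifih1, at higher levels, lie in the upper part of the cloud, while Mavs, Tbk1 and Tlr3 lie in its centre.

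For the 3 RNA helicases the nearest profiles over the 4 libraries were sought among all tested genes, as the root mean square difference of log2 values centred on each gene's mean. For Ddx58 these were Il18bp, an interleukin-binding protein (0.0172), and the uncharacterised Gm26840 and Gm37756 (0.0194 each), all at values of 12 or lower. For Ifih1 they were Enpp2, the secreted enzyme autotaxin (0.0205), the proton pump subunit Atp6v0a4 (0.0254) and Ifi203 (0.0296). For Dhx58 they were the MHC class I gene H2-T24 (0.0474), Xaf1, an interferon-inducible regulator of apoptosis (0.0679), and Zar1 (0.0751). Xaf1 had 236 and 277 in V118M, against 62 and 96 in wild type, and H2-T24 had 42 and 54 in V118M, against 12 and 16 in wild type. With 4 libraries, many genes can share such a profile.

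Other genes of the pathway were read from lists chosen by function, and none of their genes passed at an adjusted p under 0.05. Over all genes tested, 49.2% were higher in V118M, and groups were apart upward in 13.2% and downward in 14.8%. At an unadjusted p under 0.05 (limma), 2.31% of all genes tested were higher and 1.7% lower. Of 18 tested other receptors, 10 were higher and 8 lower in V118M (median log2 fold change 0.08), with groups apart upward in 7 and downward in 0. At an unadjusted p under 0.05, 2 of these were higher, the related PYHIN-family genes Ifi203 and Ifi204. Ifi203 had 1248 and 1312 in V118M, against 865 and 906 in wild type (log2 fold change 0.53, SE 0.14), and Ifi204 had 460 and 516 in V118M, against 330 and 342 in wild type (0.53, SE 0.16). Both pairs of groups were clearly apart, though reads of related copies of this family could be split between them. Zcchc3, a cofactor of cGAS and RIG-I-like receptors, averaged 114 ± 5.66 in V118M and 84 ± 5.66 in wild type (SD, n = 2 each, log2 fold change 0.44, SE 0.21). The endosomal receptors of immune cells were near the bottom of the scale. Tlr7 was at 0 and 22 in V118M and at 22 and 4 in wild type, and Tlr9 was at 0 and 4 in V118M and listed at 0 in both wild-type libraries.

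Of 21 adaptors, ubiquitin ligases and transcription factors downstream of the sensors, 10 were higher and 11 lower, with a median log2 fold change of -0.01. Irf7, the inducible factor that amplifies interferon production, was the exception, with 254 and 280 in V118M, against 48 and 50 in wild type (log2 fold change 2.42, SE 0.20, limma adjusted p = 0.205). It was the one gene of this list with an unadjusted p under 0.05. Its constitutive relative Irf3 had 447 and 512 in V118M and 378 and 386 in wild type (0.32, SE 0.16), and the NEMO gene Ikbkg had 1160 and 1037 in V118M and 1378 and 1288 in wild type (-0.28, SE 0.15). Among 16 negative regulators 6 were higher and 9 lower (median -0.08). Of these, 2 had an unadjusted p under 0.05, both higher: Usp18, which removes ISG15 and blocks the interferon receptor, at 66 and 99 in V118M, against 25 and 17 in wild type, and Trim30a, at 14 and 34 in V118M, against 7 and 4 in wild type. Rnf5, a ubiquitin ligase that acts on STING, had 372 and 571 in V118M and 328 and 325 in wild type, a gap set mainly by V118M replicate 2.

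The enzymes that limit self nucleic acids had 11 genes higher and 4 lower of 15. Their median log2 fold change was 0.14, and 0 had an unadjusted p under 0.05. Samhd1, which depletes deoxynucleotides, had 1598 and 1612 in V118M, against 1250 and 1282 in wild type (0.34, SE 0.14, unadjusted p = 0.0528). The groups were well apart for this gene. The secreted nuclease Dnase1l3 had 26 and 32 in V118M and 16 and 14 in wild type, and the RNase H2 subunit Rnaseh2a had 516 and 776 in V118M and 452 and 462 in wild type. In the list of eIF2 alpha kinases, PKR partners and translation control genes, 4 were higher and 8 lower of 12 (median -0.05), with 0 at an unadjusted p under 0.05 in either direction. Eif2ak3, the kinase PERK of the unfolded protein response, had 476 and 320 in V118M and 540 and 582 in wild type (-0.52, SE 0.23), and its log2 fold change was -0.24 when V118M replicate 2 was left out and -0.81 when V118M replicate 1 was left out. The phosphatase subunits that reverse eIF2 alpha phosphorylation were slightly lower. Ppp1r15a had 320 and 324 in V118M and 368 and 371 in wild type, and Ppp1r15b had 2558 and 2460 in V118M and 2887 and 2699 in wild type.

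Of 6 genes for cell death partners of ZBP1, 3 were higher and 3 lower, with a median log2 fold change of 0.03. The executioner of necroptosis, Mlkl, had 71 and 107 in V118M and 79 and 64 in wild type, and its log2 fold change of 0.29 was -0.0022 without V118M replicate 2. The adaptor Fadd had 117 and 108 in V118M and 96 and 97 in wild type. Casp1, an inflammasome protease, had 8 and 0 in V118M and 18 and 48 in wild type, the one gene of this list with an unadjusted p under 0.05 (0.0335). The Casp1 values lie near the bottom of the scale.

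Of 10 tested transcripts that the sensors are known to induce, 6 were higher in V118M at an unadjusted p under 0.05 and with groups apart. Over all genes tested, 2.31% were higher at that threshold and 13.2% had groups apart upward. The log2 fold changes of the other 4 (Ifit2, Ifnb1, Ccl5 and Cxcl10) were also above 0, but their groups overlapped, and all except Ifit2 lay at values of 8 or lower. The median log2 fold change was 1.03, or 0.84 without Tnf, which was at 2 and 3 in V118M and listed at 0 in both wild-type libraries. Ifit1, which binds foreign capped RNA, had 150 and 252 in V118M, against 34 and 43 in wild type (2.32, SE 0.33). Isg15 had 81 and 196 in V118M, against 9 and 15 in wild type, and the antiviral enzyme gene Rsad2 had 182 and 268 in V118M, against 120 and 126 in wild type. In contrast Ifnb1, the interferon beta gene that stands directly below TBK1 and IRF3, was at 1 and 2 in V118M and at 1 and 1 in wild type. It was at the bottom of the scale in every library, so its level could not be compared. Genes of this list were chosen with earlier results of these data known, and most of them are also targets of interferon itself.

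**Figure D5:**
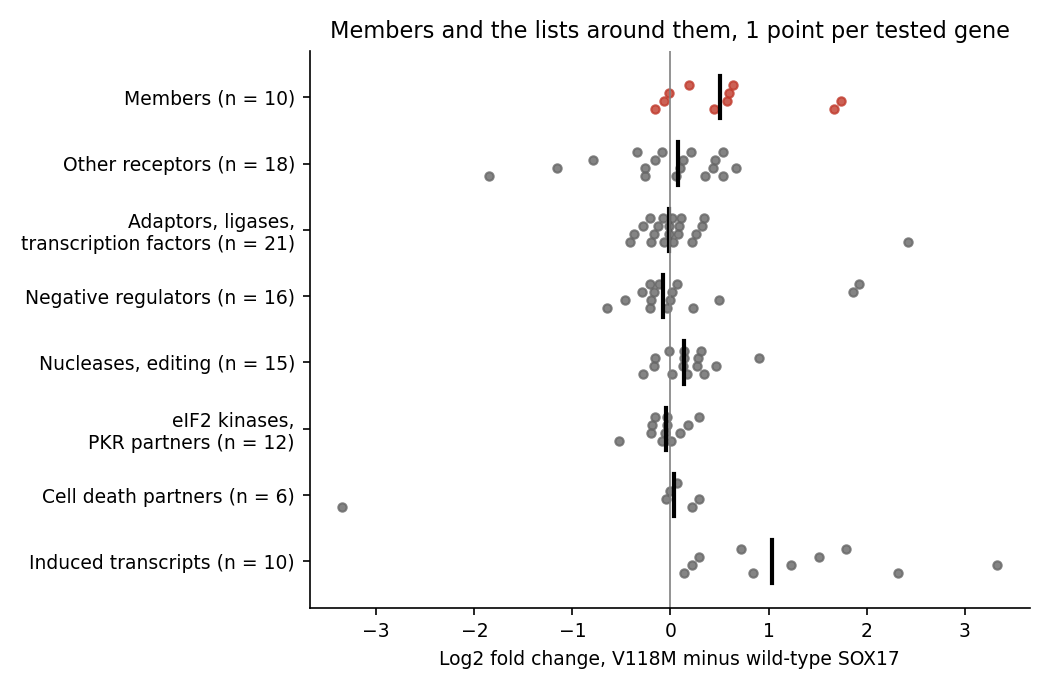
Log2 fold change, V118M minus wild-type SOX17, of the 10 members (red) and of each tested gene in 7 lists of related genes (grey), with a black bar at each median. The medians are 0.51 for the members and 1.03 for the induced transcripts, and lie between -0.08 and 0.14 for the other 6 lists.

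Other cell types in the cultures could also carry these transcripts. Macrophage and leukocyte markers summed to 649 and 673 in V118M and 947 and 860 in wild type, with 9 of 12 lower and 2 higher on average in V118M. The pan-leukocyte gene Ptprc was at 30 and 0 in V118M and 165 and 58 in wild type, and 4 and 1 of the 12 markers were at 0 in V118M, against 0 and 2 in wild type. Ptprc was the one marker of this list with groups apart, and Itgam and Cd14 were the 2 with a higher average in V118M. The 4 plasmacytoid dendritic cell markers present in the table summed to 3683 and 5134 in V118M and 3362 and 3544 in wild type, mostly Tcf4, with 3 higher and 1 lower. The lower one was Clec12a, at 0 and 18 in V118M and 18 and 6 in wild type. Siglech had no row, so these sums do not show how many such cells were present. Keratinocyte markers summed to 9510 and 12457 in V118M and 7799 and 7415 in wild type, with 4 of 6 higher. Endothelial markers summed to 1152 and 1122 in V118M and 1226 and 1295 in wild type, with Emcn at 0 in every library. Pluripotent cell markers summed to 61423 and 61398 in V118M and 61287 and 61346 in wild type, of which Pou5f1 made up 61186 in each library. That is the highest value of the scale, so these sums say little about a difference between groups. Pou5f1 is the gene of OCT4, which the protocols name among the transduced factors. Whether its values include reads of a transduced OCT4 is not stated. Of the 7 markers, 5 were higher and 1 lower on average in V118M. All except Pou5f1 lay at values of 188 or lower. The part of these cell types in the levels of the sensors was not tested.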

How the data were processed

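RNA was extracted with TRIzol and made into libraries with a TruSeq Nano RNA kit, per the labels' protocols. Bowtie2, RSEM, DESeq2 and FastQC and the build mm10 are named in the submitters' processing notes, with neither version nor role. The deposited values are a score per gene, normalized by the authors to near-identical distributions in the 4 libraries and rounded. How this was done is not stated. The highest value, 61186, was shared by 10 genes in every library, which compresses differences at the top of the scale. The members and lists were chosen with earlier results of these data known.

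Values were transformed as log2(value + 1). Genes with 1 or more in 2 or more libraries were fitted with limma 3.58.1 in R 4.3.3 (group as the only term, trend and robust empirical Bayes). The two-sided p-values were adjusted by Benjamini-Hochberg across every gene fitted. The scale understates changes of low genes. An exact permutation test of 2 against 2 libraries cannot give a p below 0.333 and was not used. Named besides the members were the 3 genes with the smallest unadjusted p of each pathway list and the 3 nearest profiles of each RNA helicase. Tlr7, Tlr9, Ifnb1 and the marker genes were named after their values were seen. Of the list genes, Dak, Ifna4, Ifnl3 and Siglech had no row under that name. Coordinates, exon lengths and transcripts came from GENCODE M21 on GRCm38 (mm10), where 22304 of 22369 genes matched, and promoter windows from RefSeq on GRCm38.p6. Alternatives were pseudocounts of 0.1 and 5, no filter and a filter at 10, the replicate number as a block, array quality weights, no trend or robust option, correction of each library for length and GC content of the transcript, and each library left out.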

Additional observations from a re-analysis of the deposited data

How the results depend on the processing

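The 5 members that were higher with groups apart and an unadjusted p under 0.05 (Ddx58, Ifih1, Dhx58, Zbp1 and Eif2ak2) stayed above 0 in all 13 alternatives. Tmem173 (0.06 to 0.31) and Mb21d1 (0.19 to 0.70) also stayed above 0 throughout, and Mavs and Tbk1 stayed below 0. No member passed an adjusted p of 0.05 in any alternative. The lowest limma adjusted p of a member was 0.0695, for Dhx58 with the length and GC correction plus the replicate block. The groups of those 5 members were apart, so only the alternatives with the length and GC correction could have changed their sign. Tlr3 changed sign, with a log2 fold change of 0.044 after the length and GC correction, with or without the block, and between -0.18 and 0.15 with 1 library left out. Mlkl lay between -0.0022 and 0.58 with 1 library left out. Over all genes, 3 passed an adjusted p of 0.05 with the replicate block and 58 with the block and the correction, and 0 in each other alternative, among them 0 with 1 library left out. The labels do not say what the replicate number stands for, and same-numbered deviations correlated at 0.303 across 12661 genes. The count at an unadjusted p under 0.05 was 1441 with no filter, 1204 with the block and 1487 with the block and the correction, and 221 to 5096 with 1 library left out. With 1 library left out, the members' median log2 fold change ran from 0.40 to 0.54. The count of members at an unadjusted p under 0.05 fell in each such fit. That count is not set out, because the count over all genes, given above, differed widely between these fits. It also did not separate members higher in V118M from members lower. With the block and the correction, Irf7 (2.41), Ifit1 (2.30), Isg15 (3.24) and Xaf1 (1.62) passed an adjusted p of 0.05. The causes of these shifts were not tested. Depth is unknown, and values near the bottom of the scale, such as Ifnb1, allow no comparison.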
